A study of Rattus norvegicus with 18 samples.

Results

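Genes of fatty acid uptake and mitochondrial beta-oxidation, together with the factors that regulate them, were followed in cultured neonatal rat ventricular cardiomyocytes treated briefly with a myosin II inhibitor. The module was a list of 36 gene names, and its members were the rows of the deposited expression table that carry those names. Of the 36, 35 were found among 28909 rows, and the fatty acid transporter gene CD36 is not analysed here. Of these 35, 34 were expressed above the filter and entered the test with 15204 genes in all, and UCP3 did not pass it.

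The treated group held 3 RNA libraries from cells given 25 µM blebbistatin for 0.5 h, and its control held 3 from cells given DMSO, the solvent, for the same time. Blebbistatin is a small molecule that inhibits the ATPase of myosin II motors. The sample labels state this dose, and the design text states it too but in another place has 0.25. All cells came from Sprague-Dawley rats that were 1 day old, with no genetic change named in the labels. Faster-attaching cells were removed by 90 min of pre-plating, and the rest grew on collagen for 24 h in medium with 10% serum. The medium was then changed to one with 0.25% serum and 3 mM pyruvate, for which the labels name no added fatty acid. Nothing in the labels shows that replicates were separate preparations of cells. The p-values therefore measure only the spread between these libraries, which may be technical.

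Fatty acids enter a cardiomyocyte through membrane transporters and binding proteins, are activated to acyl-CoA and cross into mitochondria through the carnitine shuttle. In the matrix the beta-oxidation spiral removes acetyl units, and the released electrons pass through the electron transfer flavoprotein to the respiratory chain. Malonyl-CoA blocks the shuttle's entry step. The fetal heart relies mostly on glucose and lactate, and the switch to fatty acids after birth is driven by PPAR and ERR nuclear receptors with the coactivator PGC-1α.

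Values are CPM, read counts divided by library size, as the authors deposited them, and are given in the order of replicates 1, 2 and 3. They are not divided by gene length, so levels are compared between libraries and not between genes. Depth, read from the spacing of low values, was 59.6 M to 63.3 M reads per library. The control library DMSO replicate 1 scored -77.4 on the first principal component, while the remaining 5 libraries scored -3.04 to 34.6. Results are therefore also given without it. Of 14 listed cardiomyocyte markers 13 were analysed and all passed the filter, with summed levels of 24192 to 26280 CPM in blebbistatin libraries and 24372 to 29285 CPM in DMSO libraries. All 10 fibroblast markers were expressed as well, at 40204 to 45373 CPM with blebbistatin and at 40461 to 46961 CPM with DMSO, and fibroblast RNA was thus present in every library. The 11 macrophage markers summed to 192 to 208 CPM with blebbistatin and to 114 to 204 CPM with DMSO, lowest in DMSO replicate 1, and 9 endothelial markers to 103 to 109.7 CPM with blebbistatin and 108 to 119 CPM with DMSO. Of 9 adipocyte genes, ADIPOQ, PLIN1 and UCP1 were listed at 0 in all 6 libraries. CIDEC, LEP and PCK1 did not pass the filter either, while CIDEA, FABP4 and CFD did. CIDEA was at 13.6 to 18.2 CPM with blebbistatin and at 10.1 to 16.9 CPM with DMSO. FABP4 was at 4.25 to 11.0 CPM with blebbistatin and at 6.33 to 12.4 CPM with DMSO. In such bulk samples, fewer cells of a type and less RNA per cell cannot be told apart, and the part of cell composition in the values below was not tested.

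**Figure D1:**
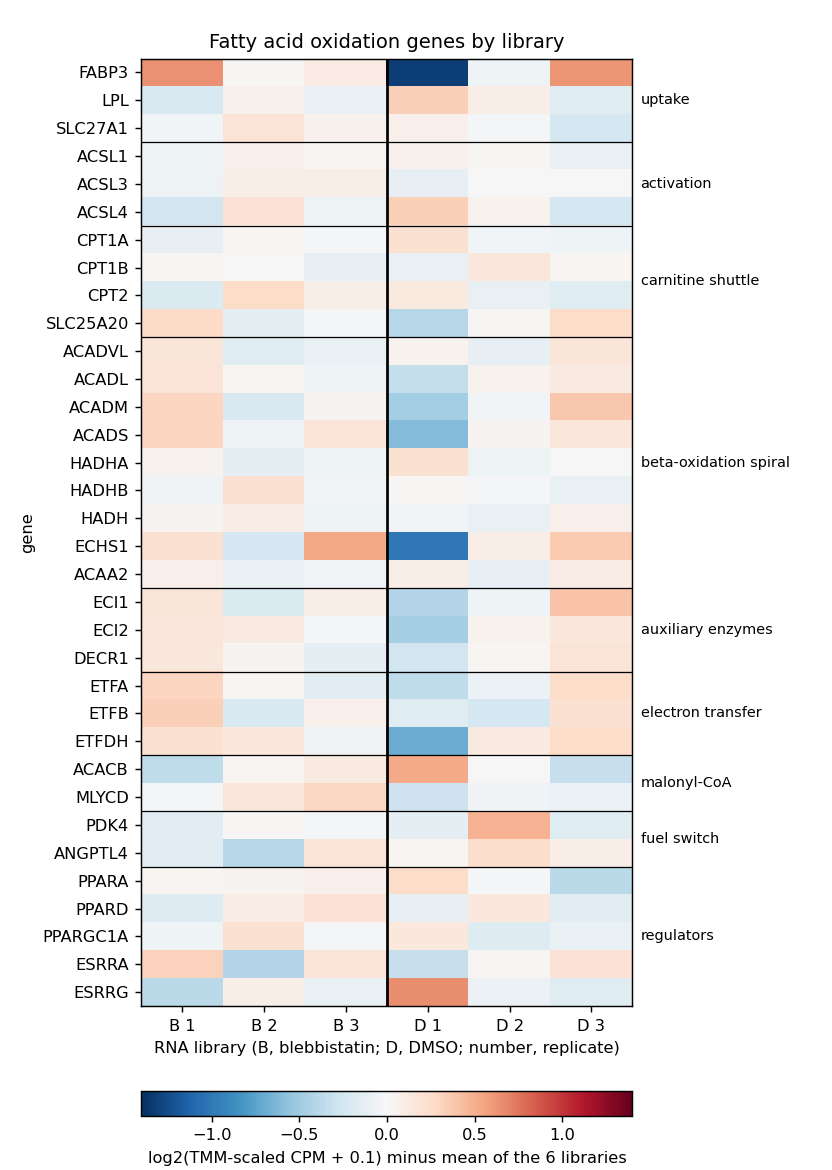
Level of each of the 34 tested members (rows, grouped by role) in the 6 libraries (columns; B, blebbistatin; D, DMSO). Colour is log2(TMM-scaled CPM + 0.1) minus the gene's mean over the 6 libraries. The palest rows include ACSL1, HADH and ACAA2, and the darkest blue cells are FABP3 and ECHS1 in DMSO replicate 1.

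Treatment with blebbistatin for 0.5 h was not followed by a detectable change in any member of the module. Limma called 0 of 34 tested members higher or lower at an adjusted p under 0.05, where it called 0.0197% of all genes, and the lowest adjusted p of a member was 0.991. At an unadjusted p under 0.05 there were also 0 of 34 members, and 1.52% of all genes. The members' log2 fold changes ran from -0.27 for ESRRG to 0.51 for FABP3, with a median of 0.074 beside 0.0040 over all genes tested. Of the 34 values, 23 were above 0 and 11 below, where 50.7% of all genes were above 0.

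Without DMSO replicate 1 the median was -0.015, with 15 members above 0 and 19 below beside 49.9% of all genes above 0. The lean to positive values also depended on blebbistatin replicates: the median was 0.011 without replicate 1, with 18 members above 0 and 16 below, and 0.041 without replicate 2, with 19 above and 15 below. Without DMSO replicate 1 limma again called 0 of 34 members, with 0.0395% of all genes called, and 0 members had an unadjusted p under 0.05, with 1.58% of all genes. For most members the 95% intervals were narrow, but like the p-values they reflect only the spread between these libraries, which may be technical. The 95% interval of the log2 fold change lay within a 2-fold change in either direction for 32 of 34 members and within 1.5-fold for 22. FABP3 and ECHS1 were the exceptions at 2-fold. Without DMSO replicate 1 the intervals of all 34 lay within 2-fold and those of 30 within 1.5-fold. The median SE was 0.148 there, against 0.174 with all libraries. Leaving out the library that stood apart lowers the spread by selection, so the narrower intervals are not read as better precision.

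**Figure D2:**
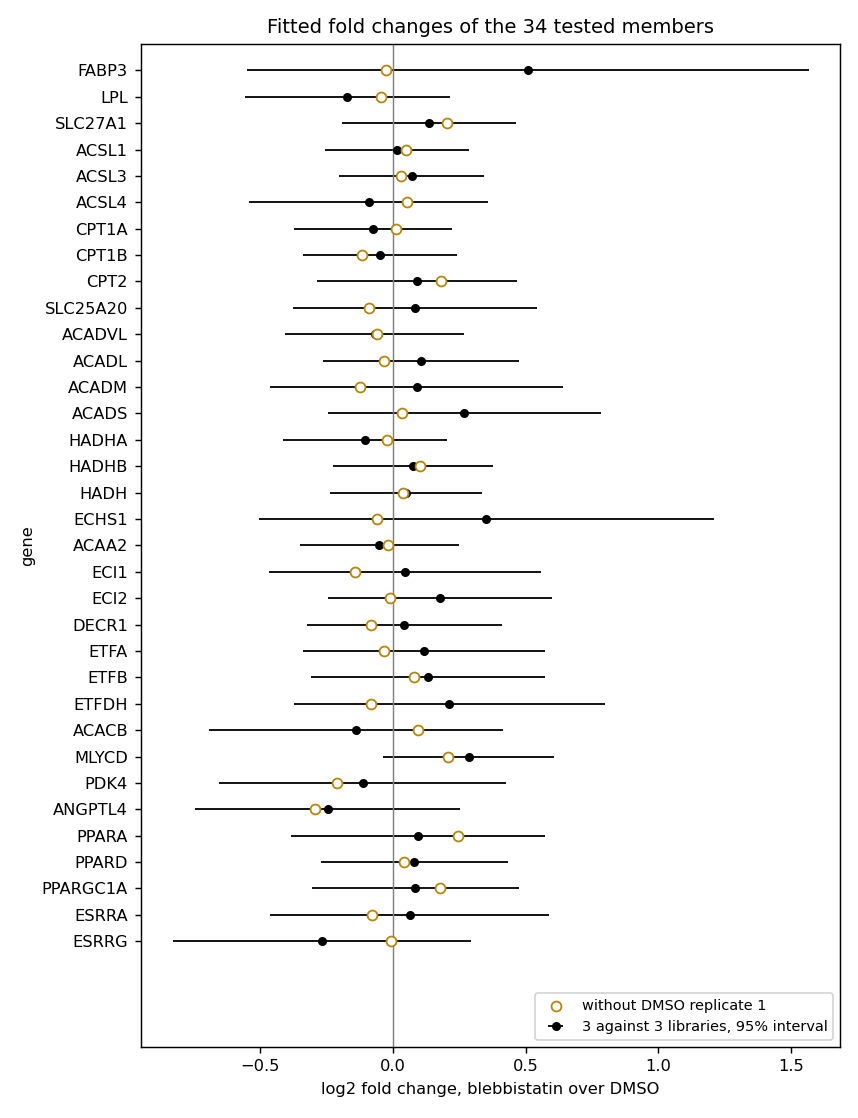
Log2 fold change of blebbistatin over DMSO (x axis) for each tested member (y axis). Filled points with bars are the fit of 3 against 3 libraries with its 95% interval, and open points are the fit without DMSO replicate 1. Every bar crosses 0, and the widest, that of FABP3, runs from -0.55 to 1.57.

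Among the uptake genes, FABP3, which encodes the heart-type fatty acid binding protein of the cytosol, spread the most. FABP3 was at 223, 140.5 and 153 CPM in blebbistatin libraries, against 51.9, 135 and 219 CPM in DMSO libraries. The groups overlapped, and the single low value was that of DMSO replicate 1. The log2 fold change was 0.51 ± 0.45 (SE) with that library and -0.024 without it. FABP3 overlaps Zcchc17 in the RefSeq annotation, and since the strand setting of the counting is not given in the sources used here, its reads may include those of its neighbour.

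LPL, the lipase that frees fatty acids from lipoprotein triglyceride, was at 185, 217 and 198 CPM with blebbistatin, against 246, 226 and 189 CPM with DMSO. Its log2 fold change was -0.17 ± 0.17, and -0.044 without DMSO replicate 1, its highest library. SLC27A1, a fatty acid transport protein of the membrane, was at 31.7, 36.0 and 33.5 CPM with blebbistatin, against 30.9, 31.6 and 27.3 CPM with DMSO. All 3 treated values of SLC27A1 lay above the controls as deposited, but not after TMM scaling. Its log2 fold change was 0.14 ± 0.14. SLC27A1 overlaps Pgls in the annotation.

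The acyl-CoA synthetase genes, whose products activate fatty acids, differed in how steady they were. ACSL1, the main synthetase of the adult heart, was at 49.9, 52.7 and 51.7 CPM in blebbistatin libraries, against 48.9, 51.6 and 48.0 CPM in DMSO libraries. All 6 libraries lay within a few CPM of each other, DMSO replicate 1 included. The 95% interval of its log2 fold change ran from -0.26 to 0.29. ACSL3, a synthetase of the endoplasmic reticulum and lipid droplets, was at 76.9, 83.1 and 84.3 CPM with blebbistatin, against 67.2, 79.5 and 80.4 CPM with DMSO (0.071 ± 0.12). ACSL4, which prefers arachidonate, was at 110.2, 149 and 124 CPM with blebbistatin and at 151, 135 and 111 CPM with DMSO (-0.091 ± 0.19). ACSL1 and ACSL3 spread little over the libraries, while ACSL4 spread more and was highest in DMSO replicate 1 on the TMM scale.

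The carnitine shuttle starts with carnitine palmitoyltransferase 1, of which CPT1A is the liver isoform, prominent in the fetal and neonatal heart, and CPT1B the muscle isoform that dominates in the adult heart. CPT1A was at 55.0, 58.9 and 57.9 CPM in blebbistatin libraries, against 62.2, 57.1 and 56.8 CPM in DMSO libraries. CPT1B was at 75.8, 72.3 and 67.4 CPM in blebbistatin libraries, against 62.2, 81.2 and 74.9 CPM in DMSO libraries. Both isoform genes were expressed in every library, and their groups overlapped. The log2 fold changes were -0.073 ± 0.13 for CPT1A and -0.050 ± 0.12 for CPT1B.

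The ratio of CPT1B to CPT1A reads within a library does not depend on the scaling. It was 1.38, 1.23 and 1.16 with blebbistatin, against 1.00, 1.42 and 1.32 with DMSO. The ratio counts reads and not molecules, because transcript lengths were not used. On the log2 scale it averaged 0.326 ± 0.124 with blebbistatin and 0.303 ± 0.268 with DMSO (SD, n = 3 each), so the isoform balance differed by less than the spread between libraries.

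The later steps of the shuttle overlapped between groups in the same way. CPT2, the inner membrane transferase, had a log2 fold change of 0.090 ± 0.16 and SLC25A20, the carnitine-acylcarnitine translocase, one of 0.085 ± 0.20. SLC25A20 was at 54.4, 39.8 and 43.9 CPM with blebbistatin, against 30.9, 44.7 and 53.3 CPM with DMSO. Without DMSO replicate 1 its log2 fold change was -0.091.

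**Figure D3:**
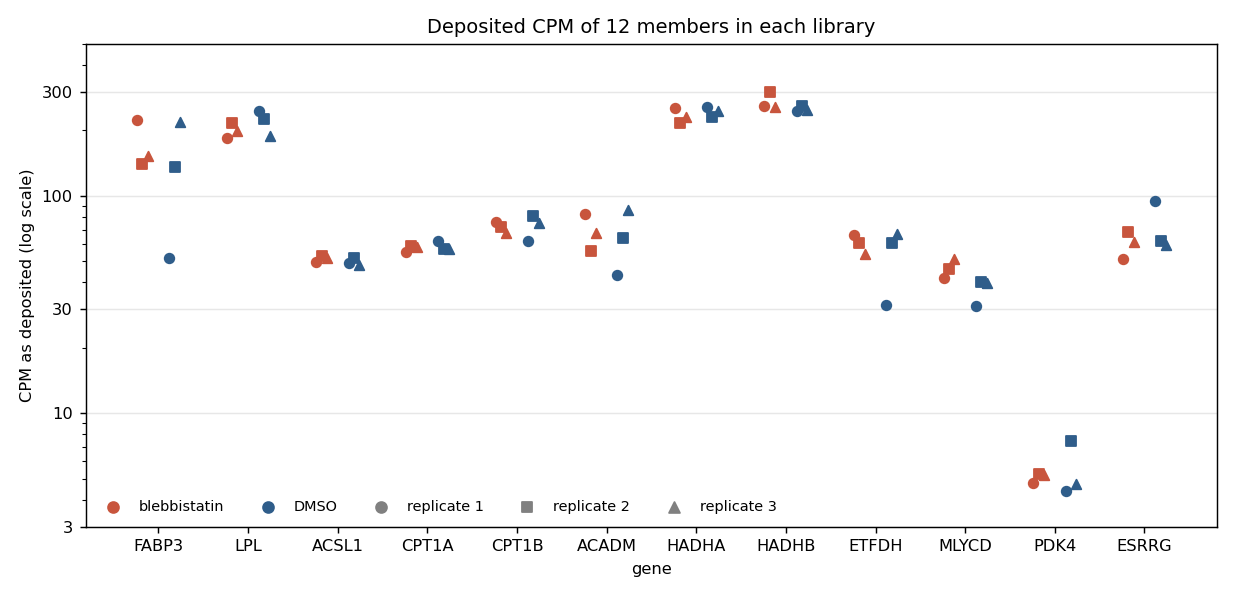
Deposited CPM (y axis, log scale) of 12 members in each library, with blebbistatin points left of DMSO points for each gene and marker shape for the replicate. For MLYCD the 3 blebbistatin points lie above the 3 DMSO points, and for the other plotted genes the groups overlap. SLC27A1, which is not plotted, also did not overlap as deposited. On the TMM scale MLYCD alone of the 34 tested members did not overlap, beside 6.13% of all genes tested. Among the genes where DMSO replicate 1 is lowest are FABP3, ACADM and ETFDH, and it is highest for LPL, CPT1A, HADHA and ESRRG.

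The acyl-CoA dehydrogenases catalyse the first reaction of each turn of the spiral, for chains of decreasing length. ACADVL, for very long chains, was at 92.5, 70.8 and 75.7 CPM with blebbistatin, against 77.0, 74.6 and 91.7 CPM with DMSO. ACADM, for medium chains, was at 82.6, 55.8 and 67.8 CPM with blebbistatin, against 43.3, 64.0 and 86.2 CPM with DMSO. ACADS, for short chains, was at 49.8, 37.3 and 45.0 CPM with blebbistatin, against 24.0, 40.8 and 44.9 CPM with DMSO. DMSO replicate 1 was the lowest library for ACADM and ACADS but not for ACADVL. The log2 fold changes of the 4 dehydrogenase genes, ACADL included, ran from -0.069 for ACADVL to 0.27 for ACADS, and without DMSO replicate 1 from -0.12 for ACADM to 0.036 for ACADS.

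HADHA and HADHB encode the subunits of the mitochondrial trifunctional protein, which carries out the remaining reactions on long chains. The 2 genes lie head to head, and their promoter windows in RefSeq share 200 bases of rat chromosome 6 (GRCr8, chr6:31907551-31907750). The start sites used for the windows are 301 bases apart. The shared stretch is shown because it is upstream of both genes. It is written on the strand of HADHA, with capitals marking the GC box letters GGGCGG, which here lie on the opposite strand.
Hadha and Hadhb shared upstream: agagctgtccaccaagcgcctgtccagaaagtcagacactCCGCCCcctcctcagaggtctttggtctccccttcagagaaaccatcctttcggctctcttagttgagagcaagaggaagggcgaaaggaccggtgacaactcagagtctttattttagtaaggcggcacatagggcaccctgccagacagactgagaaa

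HADHA was at 254, 217 and 232 CPM with blebbistatin, against 257, 230.4 and 245 CPM with DMSO (log2 fold change -0.10 ± 0.13). HADHB was at 259.7, 301 and 257 CPM with blebbistatin, against 245, 259 and 249 CPM with DMSO (0.077 ± 0.13). Both were steady across libraries, and neither was lowest in DMSO replicate 1 on the TMM scale. Of the other spiral enzymes, HADH (0.048 ± 0.12) and the thiolase ACAA2 (-0.051 ± 0.13) were as steady. The enoyl-CoA hydratase gene ECHS1 was at 30.5, 21.6 and 37.6 CPM with blebbistatin, against 11.8, 27.6 and 33.7 CPM with DMSO. Its lowest value was again that of DMSO replicate 1, with a log2 fold change of 0.35 ± 0.37 with that library and -0.058 without it.

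Unsaturated fatty acids need extra isomerases and a reductase, encoded by ECI1, ECI2 and DECR1. Their log2 fold changes were 0.048 ± 0.22, 0.18 ± 0.18 and 0.044 ± 0.16. ECI2 was at 64.5, 61.0 and 55.9 CPM with blebbistatin, against 37.6, 58.6 and 63.7 CPM with DMSO, and all 3 genes were lowest in DMSO replicate 1. ETFA and ETFB encode the electron transfer flavoprotein and ETFDH the oxidoreductase that passes its electrons to ubiquinone. ETFDH was at 65.8, 60.7 and 53.9 CPM with blebbistatin, against 31.4, 60.7 and 66.9 CPM with DMSO. DMSO replicate 1 was the single low library for ETFDH, and the other 5 lay close together. The log2 fold changes of ETFA, ETFB and ETFDH were 0.12 ± 0.19, 0.13 ± 0.19 and 0.21 ± 0.25.

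Malonyl-CoA is made at the mitochondrial surface by acetyl-CoA carboxylase 2, the product of ACACB, and removed by malonyl-CoA decarboxylase, the product of MLYCD. MLYCD was at 41.9, 45.9 and 51.1 CPM with blebbistatin, against 31.2, 40.2 and 39.9 CPM with DMSO. It was the only member whose groups did not overlap on the TMM scale, 1 of 34, where the groups did not overlap for 6.13% of all genes and the blebbistatin libraries lay above for 3.24%. MLYCD averaged 45.7 ± 4.88 CPM with blebbistatin and 37.4 ± 3.34 CPM with DMSO on that scale (SD, n = 3 each). The log2 fold change of MLYCD was 0.29 ± 0.14, with a 95% interval from -0.038 to 0.61 and a limma adjusted p of 0.991, and it was 0.21 without DMSO replicate 1. ACACB was at 49.8, 63.0 and 68.4 CPM with blebbistatin, against 83.2, 62.4 and 50.7 CPM with DMSO. Here DMSO replicate 1 was the highest library, and the log2 fold change was -0.14 ± 0.24 with it and 0.094 without it.

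PDK4, ANGPTL4 and UCP3 are targets of PPARs that respond to fatty acids and fasting. PDK4, the kinase that turns pyruvate dehydrogenase off, was at 4.79, 5.26 and 5.21 CPM with blebbistatin, against 4.38, 7.43 and 4.71 CPM with DMSO (log2 fold change -0.11 ± 0.23). ANGPTL4, a secreted inhibitor of lipoprotein lipase, was at 4.45, 3.62 and 5.53 CPM with blebbistatin, against 4.55, 5.80 and 5.23 CPM with DMSO (-0.24 ± 0.21). UCP3, a mitochondrial carrier of the uncoupling protein family, was listed at 0 in 2 libraries of each group. It was at 0.146 CPM in blebbistatin replicate 3 and at 0.0648 CPM in DMSO replicate 3, where 3 reads would be 0.0487 and 0.0486 CPM. At this depth a difference in UCP3 was not detectable.

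The regulators include the fatty acid sensors PPARα and PPARδ (PPARA, PPARD), their coactivator PGC-1α (PPARGC1A) and the estrogen-related receptors α and γ (ESRRA, ESRRG). PPARA was at 7.18, 6.97 and 7.27 CPM with blebbistatin, against 7.55, 6.82 and 5.33 CPM with DMSO. PPARD was at 48.7, 57.1 and 62.1 CPM with blebbistatin, against 45.8, 59.9 and 49.1 CPM with DMSO. PPARGC1A was at 11.3, 13.3 and 11.5 CPM with blebbistatin, against 11.8, 10.2 and 11.0 CPM with DMSO. All 3 overlapped between groups, with log2 fold changes of 0.094 ± 0.20, 0.082 ± 0.15 and 0.085 ± 0.17.

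ESRRA and ESRRG, close relatives that bind the same DNA element, differed in which library stood out. ESRRA was at 69.5, 40.5 and 61.9 CPM with blebbistatin, against 40.1, 55.3 and 63.4 CPM with DMSO (log2 fold change 0.064 ± 0.22). ESRRG was at 51.4, 68.5 and 61.4 CPM with blebbistatin, against 95, 62.0 and 59.2 CPM with DMSO (-0.27 ± 0.24). ESRRG was highest in DMSO replicate 1, while ESRRA was low in that library and in blebbistatin replicate 2. Without DMSO replicate 1 the values were -0.078 for ESRRA and -0.0069 for ESRRG. PPARA overlaps Cdpf1 and ESRRA overlaps Trmt112 in the annotation, and ACSL3 and SLC25A20 each overlap a predicted protein-coding gene, so these 4 are uncertain in the same way as FABP3.

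The DNA elements of these receptors were looked for in RefSeq promoter windows (GRCr8, 250 bases before to 50 after a start site), of which 33 belonged to 30 of the 36 listed genes. On either strand, 0 of the 33 held the DR1 element of PPAR with RXR, a direct repeat of AGGTCA with a single free base between the repeats, which 0.0538% of all 33469 windows held. The ERR element TNAAGGTCA was in 0 of 33 and in 1.20% of all windows. At such shares a list of 33 windows would mostly hold none, so these counts of 0 say nothing about the members. Variant letters and more distant elements were not searched. The receptors' half-site AGGTCA, which both elements contain, was in 9 of 33 (27.3%), against 16.2% of all windows and 12% of the 11699 windows of tested genes. The GC box GGGCGG was in 21 of 33 (63.6%), against 33.1% of all windows and 60.1% of those of tested genes. The half-site and the GC box were searched after the first 2 motifs had given no match, and matches are a description of letters and not of binding.

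DMSO replicate 1 stood apart over the whole table, and the members' counts there are read against that background. Of the 34 members, 13 were lowest in DMSO replicate 1, close to the share of 34.4% of all genes, and 7 were highest there, where 33.7% of all genes were. Of the 15 matrix enzymes (spiral, auxiliary and electron transfer genes), 9 were lowest in that library and 1, HADHA, was highest. Of the other 19 members 4 were lowest and 6 highest. The mean log2 level in DMSO replicate 1, minus that over the remaining 5 libraries, was -0.49 for electron transfer genes, -0.46 for auxiliary enzymes and -0.28 for the spiral. The spiral held both signs, from -1.20 for ECHS1 to 0.26 for HADHA. Outside the matrix the mean difference was -0.36 for uptake genes, -0.045 for the carnitine shuttle and -0.068 for the fuel switch targets. The uptake value came from FABP3, while LPL was at 0.41 and SLC27A1 at 0.082. The shuttle ran from -0.47 for SLC25A20 to 0.25 for CPT1A, and PDK4 was at -0.17 and ANGPTL4 at 0.033. The mean difference was 0.12 for the synthetases, 0.14 for the malonyl-CoA pair and 0.15 for the regulators. Each of these 3 groups also held members of both signs. ACSL3 was at -0.14 and ACSL4 at 0.41, MLYCD at -0.35 and ACACB at 0.64, and ESRRA at -0.38 and ESRRG at 0.79. Single members ranged from -1.58 for FABP3 to 0.79 for ESRRG.

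The same library was lowest for 20 of 23 genes of the respiratory chain and citrate cycle, with a mean difference of -0.41. Marker lists of cell types differed there in both directions. The difference was -0.87 for 10 tested macrophage markers, -0.79 for 3 adipocyte markers, -0.32 for the 13 of cardiomyocytes and -0.15 for the 10 of fibroblasts. Among the 3 adipocyte markers CFD, at 0.566 CPM or below in every library, was at -1.68, CIDEA at -0.51 and FABP4 at -0.17. The difference was 0.024 for 9 endothelial markers, 0.16 for 10 smooth muscle and pericyte markers and 1.27 for 4 red blood cell markers. Cardiomyocyte markers went both ways, from -2.83 for NPPA to 1.00 for RYR2, and their summed CPM was highest in that library. Other lists also held both signs. Tested macrophage markers ran from -2.41 for C1QC to 0.15 for CSF1R, with MRC1 at 0.10, and fibroblast markers from -1.35 for MFAP5 to 0.63 for PDGFRA. Endothelial markers ran from -1.02 for CLDN5 to 1.14 for VWF, and smooth muscle and pericyte markers from -0.86 for CNN1 to 1.09 for PDGFRB. The part of these cell types in the members' values was not tested. The summed CPM of the 15 matrix enzymes was 1431, 1263 and 1261 in blebbistatin libraries, against 1073, 1254 and 1401 in DMSO libraries. Blebbistatin replicate 1 and DMSO replicate 3 had the highest sums. Among the 5 libraries other than DMSO replicate 1, these 2 were the highest for 11 of the 15 matrix enzymes, for 3 of the other 19 members and for 15 of the 23 respiratory chain and citrate cycle genes, where they were for 22.4% of all genes. The matrix enzymes thus ordered the libraries across the treatment groups, with 1 library of each group on top. Blebbistatin replicate 1 and DMSO replicate 3 also scored highest on the first principal component, at 34.6 and 33.9. Over all genes tested, their deviations from their group means correlated at 0.376, the highest of any pair across groups. This order was thus also seen beyond the matrix enzymes. The counts of highest libraries were chosen after the values were seen.

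**Figure D4:**
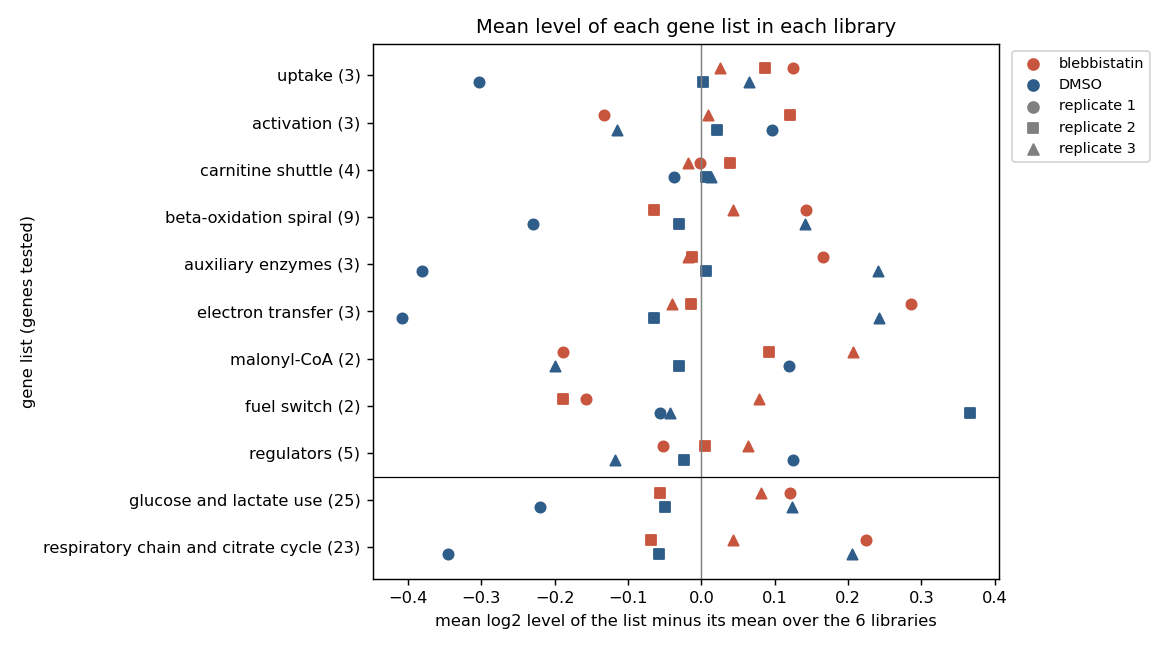
Mean log2 level of each gene list in each library minus the list's mean over the 6 libraries (x axis), for the 9 role groups of the module and, under the line, for 2 comparison lists (y axis, genes tested in brackets). Blebbistatin points lie above DMSO points in each row. DMSO replicate 1 is lowest for uptake, carnitine shuttle, spiral, auxiliary and electron transfer genes and for both comparison lists, and it is highest for the regulators.

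Other genes of fatty acid metabolism gave the same picture. Of 63 further genes of uptake, oxidation, lipid storage and regulation, 60 were tested and limma called 0 higher and 0 lower, with 0 at an unadjusted p under 0.05 and a median log2 fold change of -0.017. The members of that list with the lowest p did not pass. ACAA1A, a peroxisomal thiolase, was at 22.5, 20.2 and 20.4 CPM with blebbistatin, against 13.4, 18.3 and 19.8 CPM with DMSO. Its log2 fold change was 0.27 ± 0.16 (limma adjusted p = 0.991), and 0.14 without DMSO replicate 1, its lowest library. The groups of ACAA1A did not overlap, which held for 2 of the 60 genes on the TMM scale and for 6.13% of all genes. FABP4, a binding protein of endothelium and adipocytes, had a value of -0.40 ± 0.36 and the coactivator gene PPARGC1B one of -0.17 ± 0.17. KLF15, a transcription factor of cardiac lipid use, had a value of 0.34 ± 0.20 and BDH1, an enzyme of ketone body use, one of 0.26 ± 0.18. Without DMSO replicate 1 the values were -0.58 for FABP4, -0.011 for PPARGC1B, 0.19 for KLF15 and 0.33 for BDH1.

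Glucose and lactate are the competing fuels of the newborn heart, and their genes were also not called. All 25 listed genes were tested, and limma called 0, with 0 at an unadjusted p under 0.05 and a median log2 fold change of 0.034. The lowest p values belonged to ENO3 (0.43 ± 0.25), PDHB (0.44 ± 0.33) and TPI1 (0.80 ± 0.80) on the higher side and to HK2 (-0.19 ± 0.12), HK1 (-0.13 ± 0.15) and PDHA1 (-0.060 ± 0.13) on the lower. The glycolytic enzyme gene TPI1 was at 152, 99.9 and 122 CPM with blebbistatin, against 17.1, 118 and 159 CPM with DMSO, so its value rested on DMSO replicate 1, and without it the log2 fold change was -0.15. The values of PDHB and HK1 rested on that library too, and without it they were 0.047 and -0.0044. Those of ENO3, HK2 and PDHA1 were then 0.26, -0.19 and 0.024.

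Pairs of genes whose balance shifts in the heart around birth were compared as read ratios within a library. The ratio of SLC2A4, the insulin-responsive glucose transporter, to SLC2A1, the fetal one, was 0.0952, 0.0700 and 0.102 with blebbistatin, against 0.0463, 0.0823 and 0.105 with DMSO. The ratio of LDHB to LDHA, the heart and muscle subunits of lactate dehydrogenase, was 0.449, 0.378 and 0.402 with blebbistatin, against 0.271, 0.414 and 0.448 with DMSO. Both were lowest in DMSO replicate 1 and overlapped between groups. For HK2 over HK1 the ratio was 0.236, 0.214 and 0.246 with blebbistatin, against 0.202, 0.246 and 0.283 with DMSO. For PPARA over PPARD it was 0.147, 0.122 and 0.117 with blebbistatin, against 0.165, 0.114 and 0.109 with DMSO, and for ACSL1 over ACSL3 it was 0.648, 0.634 and 0.613 with blebbistatin, against 0.728, 0.649 and 0.597 with DMSO. The largest difference between group means over the 6 pairs was 0.254 on the log2 scale, for SLC2A4 over SLC2A1, below the SD of 0.608 among its DMSO libraries.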

How the data were processed

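The authors deposited CPM values per gene and library, as the equal column totals show. The submitters' processing notes list rn6, StringTie 1.3.4, HISAT2 2.1.0, Trim Galore, edgeR 3.20.9, MACS2 2.1.0 and BWA with no role given, for RNA and chromatin together. The annotation and strand setting are not given in the sources used here. In each library 99.1 to 99.2% of values above 0 were whole multiples, within 0.02, of 1 step, taken as 1 read, while the remainder were not. The values were thus not turned back into reads, and no count test was run. The 12 chromatin and input samples are not analysed here.

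Log2(CPM divided by a TMM factor + 0.1) was tested with limma 3.58.1 in R 4.3.3 (trend and robust settings, no block, two-sided, Benjamini-Hochberg over all genes tested, threshold 0.05). TMM factors, without weights (trims of 0.3 and 0.05), lay between 0.928 and 1.03. A gene was tested if 3 or more libraries had 0.162 CPM or above, which is 10 reads at the median depth (61.7 M reads). Adding 0.1 CPM makes fold changes of weakly expressed genes too small. Group means with SD use TMM-scaled values. Floors of 3 reads cover counting error only. The steps were tested on simulated data.

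Members and lists were chosen with earlier results of these data known. All members were named. Of the other lists, the 3 genes with the lowest p in each direction were named, because no gene was called, beside genes of the read ratios, except 1 that is not reported here. RefSeq names and promoters are of GRCr8, used for no coordinates of the table. No library duplicates another (chi-square over its degrees of freedom was at least 34.2 for every pair). Alternatives covered scaling, filter, pseudocount, the robust setting, the threshold, the replicate block and each library left out.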

Additional observations from a re-analysis of the deposited data

How the results depend on the processing

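No member was called under any alternative run for the fit (scaling by RLE, library size or upper quartile, no filter, at least 1 CPM in 3 libraries, pseudocounts of 0.5 and 1 CPM, robust=FALSE, the replicate block and each of 6 libraries left out), nor at adjusted p thresholds of 0.01 or 0.1, and the same held for the other fatty acid genes and the glucose and lactate genes. Planned count tests on whole reads (edgeR, DESeq2) were not run, because whole reads were not recovered. The genes called among all tested numbered 3, and 2 to 4 under the alternatives that kept all libraries and 3 to 6 with a library left out, with 6 without DMSO replicate 1 and 6 without DMSO replicate 3. With the replicate block 2 genes were called and 0 members, with a lowest member adjusted p of 0.999, and same-numbered libraries' deviations from their group means correlated at -0.289, 0.0542 and -0.0921, so the numbers were not taken to pair libraries. The members' median log2 fold change ran from 0.0713 to 0.113 with all libraries and from -0.0146 to 0.0788 with a library left out. With all libraries in the fit, 272 values of members under other settings and 34 under the block kept their sign. Of 204 with a library left out, 32 took the other sign and 172 did not. The ranges over left-out libraries of those that did were -0.33 to 0.0944 for ACACB, -0.033 to 0.194 for ACADL, -0.124 to 0.303 for ACADM, -0.0308 to 0.0517 for ACSL1, -0.235 to 0.0549 for ACSL4, -0.121 to 0.0129 for CPT1A, -0.115 to 0.014 for CPT1B, -0.0137 to 0.209 for CPT2, -0.0812 to 0.143 for DECR1, -0.0584 to 0.627 for ECHS1, -0.144 to 0.258 for ECI1 and -0.0111 to 0.299 for ECI2. They were -0.0836 to 0.283 for ESRRA, -0.0315 to 0.278 for ETFA, -0.00385 to 0.275 for ETFB, -0.083 to 0.394 for ETFDH, -0.024 to 0.945 for FABP3, -0.00732 to 0.119 for HADHB, -0.226 to 0.100 for PDK4, -0.0708 to 0.245 for PPARA, -0.00169 to 0.18 for PPARGC1A and -0.091 to 0.234 for SLC25A20. Each of these refits also had fewer samples, and the cause of the sign changes was not tested.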

Other observations

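PNPLA2, the gene of the lipase that starts the breakdown of stored triglyceride, was listed at 0 in 5 libraries and at 32.1 CPM in blebbistatin replicate 3. It did not enter the test. PNPLA2, LIPE, PLIN2 and ACACA were chosen for mention after their values were seen. LIPE, the hormone-sensitive lipase gene, was at 3.96, 4.27 and 5.29 CPM with blebbistatin, against 4.23, 2.73 and 4.34 CPM with DMSO, and the lipid droplet gene PLIN2 at 123, 103 and 105 CPM with blebbistatin, against 79.7, 101 and 122 CPM with DMSO. An exact 0 in this table is described only as listed at 0, which also holds for UCP3.

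ACACA, which encodes the cytosolic acetyl-CoA carboxylase, was at 84.1, 114 and 106 CPM with blebbistatin, against 197, 99.2 and 87.5 CPM with DMSO. Both carboxylase genes, ACACA and ACACB, were highest in DMSO replicate 1, where FABP3, ECHS1 and ETFDH were lowest. The log2 difference of that library from the mean of the other 5 was 1.14 for ACACA and 0.64 for ACACB, against -1.58 for FABP3, -1.20 for ECHS1 and -0.84 for ETFDH. Those last genes are the members with the most negative values. Other uptake and oxidation genes were highest there, with LPL at 0.41, HADHA at 0.26 and CPT1A at 0.25, while MLYCD was at -0.35. Of all genes tested, 34.4% were lowest and 33.7% highest in that library.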
